A study of Mus musculus with 24 samples.

Results

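Bc1 (ENSMUSG00000115783) encodes brain cytoplasmic RNA 1, a short non-coding RNA of rodent neurons. It was 1 of the 55385 genes counted, and it was picked because its level differed between genotypes in the hippocampus (HIP) of Ts65Dn mice. RNA-Seq was performed on the HIP and the entorhinal cortex (EC) of 6 Ts65Dn males and 6 wild-type (wt) males, their control littermates, all 5 to 6 months old and on the mixed B6C3B background. Ts65Dn mice are a model of Down syndrome that carries a freely segregating extra minichromosome with part of mouse chromosome 16 (Mmu16) and the centromeric part of chromosome 17 (Mmu17), so genes of both segments are present in an extra copy. No transgene, Cre allele or drug was used, and each library came from 1 region of 1 mouse, which gave 6 libraries each of wt HIP, Ts65Dn HIP, wt EC and Ts65Dn EC. The choice of Bc1 used the genotype contrast in the HIP, and the EC came from the same 12 mice, so its genotype differences are described below without a test.

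Bc1 is transcribed by RNA polymerase III, the enzyme that also makes tRNAs and 5S rRNA, and not by the polymerase that makes mRNAs. It arose from a tRNA-derived retrotransposon, and its 5′ part is shared with the ID elements, short repeats that are scattered over rodent genomes in many copies. In neurons, Bc1 RNA is packed with proteins, is carried into dendrites and represses the initiation of translation through eIF4A and the poly(A)-binding protein, and mice that lack it have been used to study signalling from group I metabotropic glutamate receptors (mGluRs).

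The gene lies at chr7:144914470-144914637 on the + strand of GRCm38, outside both triplicated segments, as a single exon of 168 bases annotated as a lincRNA in GENCODE vM21. No other annotated gene overlapped it. RefSeq, on the same build, ends the RNA 14 bases earlier, and these 154 bases of the GENCODE transcript are shown because their composition bears on what a read from this gene can be. The longest run of A, 23 bases at positions 77 to 99 counted from the 5′ end, is in capitals.
Bc1: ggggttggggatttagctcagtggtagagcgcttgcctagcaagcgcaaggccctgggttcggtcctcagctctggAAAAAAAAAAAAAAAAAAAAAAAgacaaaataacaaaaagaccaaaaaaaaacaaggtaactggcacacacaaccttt
A made up 42.2% of these bases (65 of 154). The part before the run is the ID-related part, and the first 30 bases were found in the annotated transcripts of 6 other genes. Of the 119 windows of 50 bases, the read length, that the 168-base gene can give, the 37 that start at positions 1 to 37 occurred exactly in annotated transcripts of 5 other genes (Akap5, Elp6, Gm26549, Lrrc17 and Tatdn1), whereas the 82 windows that start at positions 38 to 119 did not. Reads from the 5′ part can therefore be shared with ID copies. Matches in the rest of the genome were not searched here. The pseudogene Bc1-ps1 had 0 counts in all 24 libraries.

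The authors counted single-end reads per gene with HTSeq-count, and these whole-number counts were used without change. The total on genes was 23128589 to 40476492 per library. Bc1 received 1913 to 28041 counts per library, so that the counting error was at most 2.29% of its value in any library. Levels are given as CPM, that is, counts scaled to library size with TMM factors over the 24 libraries. The labels describe poly-T bead purification with a stranded mRNA kit whereas the study's methods name a stranded total RNA kit and also state that the RNA was polyA RNA, so how an RNA without an mRNA-type poly(A) tail entered the libraries is not settled by these descriptions. The silica columns named in the labels are known to retain RNAs this short less well than long ones, and the recovery of Bc1 was not measured.

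The genotype labels were checked with the protein-coding genes of the triplicated segments, 82 on Mmu16 and 29 on Mmu17. In 5 of the 6 Ts65Dn mice, the median fold of the Mmu16 genes against the wt mean was 1.43 to 1.53 (HIP) and 1.46 to 1.51 (EC). In both libraries of the mouse labelled Ts65Dn replicate 3, the Mmu16 genes had medians of 1.02 (HIP) and 1.01 (EC), and the Mmu17 genes 0.975 and 0.984, which is the wt level. The label was kept, and the levels, calls and region values of Bc1 and the counts of list members called are also given without this mouse. The other values, among them group means of other genes, marker sums and shares of counts, include it. The regions were told apart by their markers, since Prox1, C1ql2, Zbtb20 and Wfs1, genes of hippocampal neurons, summed to 706.7 ± 61.2 CPM in the wt HIP and 290.2 ± 46.6 CPM in the wt EC (SD, n = 6).

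Bc1 was higher in Ts65Dn than in wt in both regions. In the wt HIP, replicates 1 to 6 had 125.7, 128.9, 76.5, 108.3, 106.4 and 108.9 CPM. In the Ts65Dn HIP, replicates 1 to 6 had 447.5, 294.8, 199.8, 406.7, 354.2 and 445.6 CPM. The groups did not overlap, since the lowest Ts65Dn library, from replicate 3, lay above the highest wt library. Means were 109.1 ± 18.7 CPM in wt and 358.1 ± 97.1 CPM in Ts65Dn (SD, n = 6), a log2 fold change of 1.71 (SE 0.18), or 3.27-fold. Among the 17355 genes tested with edgeR in the HIP, 181 (1.04%) were called at an adjusted p-value under 0.05, 94 of them higher in Ts65Dn (69 of 104 with GC content and gene length corrected). Without Ts65Dn replicate 3, 318 of 17452 genes were called. Bc1 was among the 181, with the third largest increase, and 290 genes (1.67%) had groups that did not overlap. Since Bc1 was picked on this contrast, these ranks describe the choice and nothing is read from them. In bulk tissue, more cells that express Bc1 and more Bc1 RNA per cell cannot be told apart.

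In the wt EC, replicates 1 to 6 had 341.7, 433.9, 179.6, 245.0, 191.4 and 152.7 CPM of Bc1. In the Ts65Dn EC, replicates 1 to 6 had 608.4, 938.1, 820.9, 451.8, 912.1 and 515.9 CPM. Again the groups did not overlap, although the highest wt library (433.9 CPM) came close to the lowest Ts65Dn library (451.8 CPM). Means were 257.4 ± 109.3 CPM in wt and 707.9 ± 209.7 CPM in Ts65Dn (SD, n = 6), a log2 fold change of 1.45 (SE 0.26), or 2.73-fold. In the EC, 426 of 17049 genes (2.50%) were called, 196 of them higher in Ts65Dn (83 of 142 with GC content and length corrected, and 366 of 502 without TMM factors), and 419 genes (2.46%) had groups that did not overlap. Without Ts65Dn replicate 3, 480 of 17229 genes were called. These counts are given as the background, and nothing is read from them about Bc1, which was picked in the same mice. The genotype change on the log2 scale was 0.18 (SE 0.31) larger in the HIP than in the EC when fitted over all 24 libraries, a difference that was smaller than its SE and was not tested.

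**Figure D1:**
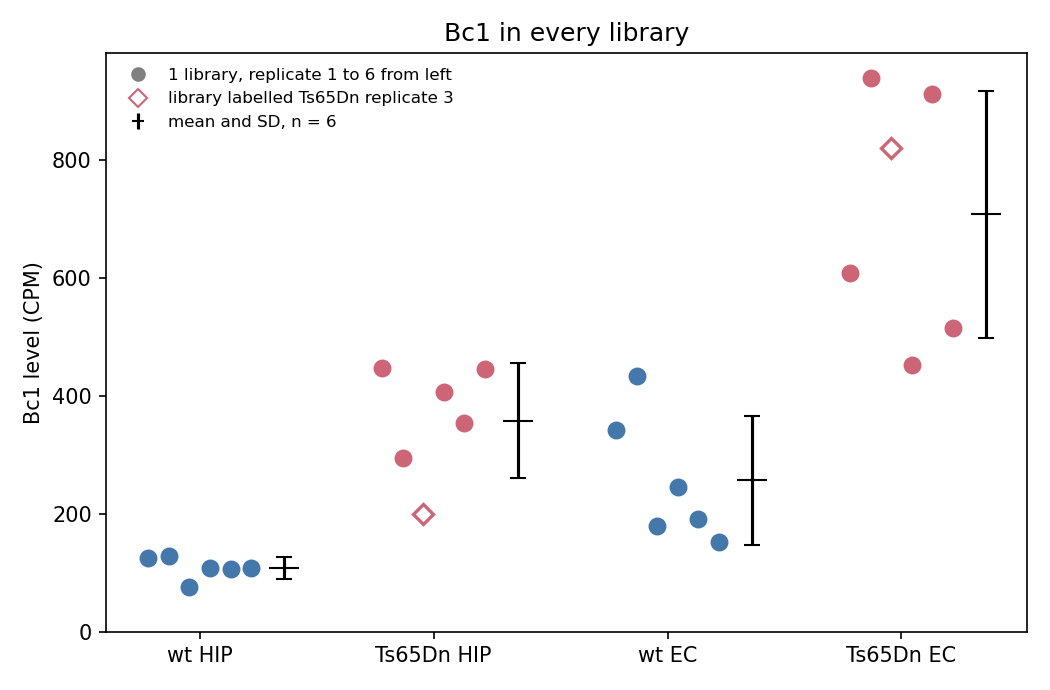
Bc1 level in CPM (linear axis from 0) in each of the 24 libraries by genotype and region, with replicates 1 to 6 from left to right and the mean and SD of each group (n = 6) beside them. All 6 Ts65Dn libraries lay above all 6 wt libraries within each region, and the Ts65Dn HIP and wt EC overlapped.

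The mouse labelled Ts65Dn replicate 3 was above all wt mice in Bc1 in both regions, and it was the lowest Ts65Dn mouse in the HIP. Its HIP level of 199.8 CPM was 1.83 times the wt mean and above the highest wt library (128.9 CPM), and its EC level of 820.9 CPM was 3.19 times the wt mean. Without it, the Ts65Dn mean was 389.8 ± 65.2 CPM in the HIP (SD, n = 5) and 685.3 ± 226.1 CPM in the EC, and the log2 fold changes were 1.83 and 1.41. Within the other 5 Ts65Dn mice, the fold of the triplicated genes varied little (1.43 to 1.53 for Mmu16 in the HIP), and Bc1 had 294.8 to 447.5 CPM (HIP) and 451.8 to 938.1 CPM (EC). Whether Bc1 follows the dosage of the triplicated genes was not tested.

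**Figure D2:**
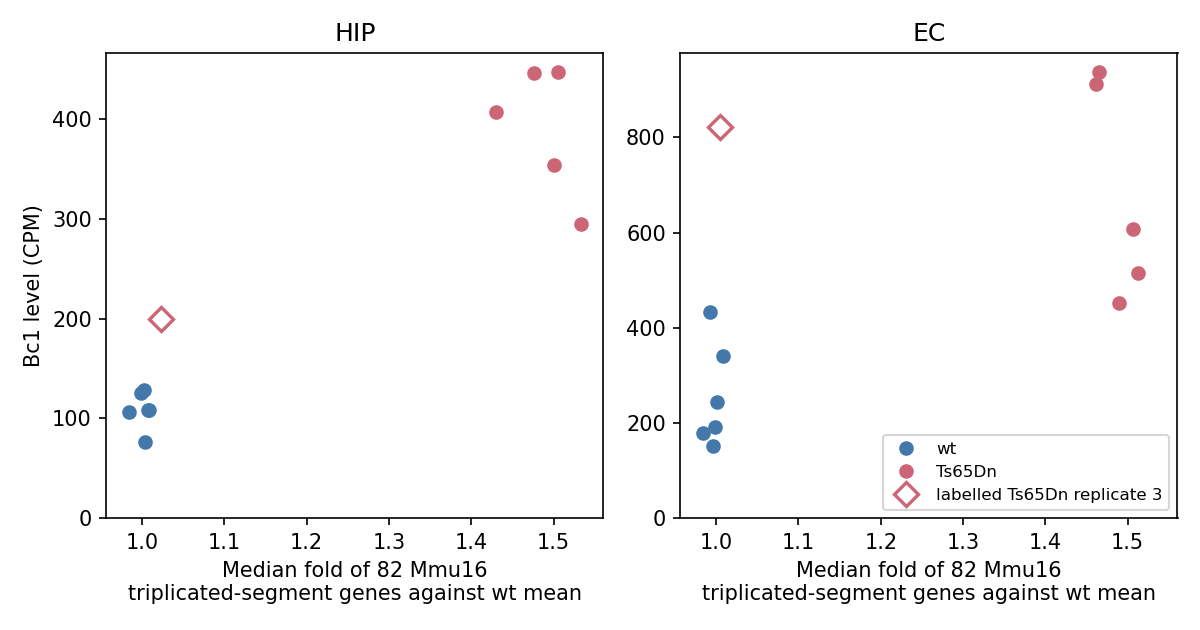
Bc1 level in CPM (vertical axes from 0, with a scale of their own in each region) against the median fold of 82 Mmu16 triplicated-segment genes over the wt mean, 1 point per library. The library labelled Ts65Dn replicate 3 had a triplicated-gene fold of 1.02 (HIP) and 1.01 (EC), as in wt, with 199.8 and 820.9 CPM of Bc1.

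Bc1 was lower in the HIP than in the EC in 12 of 12 mice. This comparison runs within each mouse and over both genotypes. Bc1 was picked on the genotype contrast in the HIP, but with earlier results of these data known. The p-values of the regional comparison are therefore descriptions of these mice. The log2 fold change of HIP over EC was -1.07 (SE 0.15, edgeR adjusted p = 9.94e-06 in a fit with a term for each mouse), so that the EC had 2.10 times the HIP level. The exact two-sided sign-flip permutation test over the 12 within-mouse differences gave p = 0.000488, the smallest that 12 mice allow. Without the mouse labelled Ts65Dn replicate 3, Bc1 was lower in the HIP in 11 of 11 mice, with a mean log2 difference of -0.98 (exact permutation test, p = 0.000977, again the smallest possible). Differences between regions were common, since 12395 of 18109 genes (68.4%) were called in this comparison, where 1868 genes had a larger log2 difference than Bc1 in either direction.

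The size of the regional difference varied among mice. In wt, the EC level was 1.40 to 3.37 times the HIP level, and in Ts65Dn 1.11 to 4.11 times, with a median of 2.31 over wt mice and 1.97 over Ts65Dn mice. In Ts65Dn replicates 1, 4 and 6 the EC level was 1.36, 1.11 and 1.16 times the HIP level, and in Ts65Dn replicates 2, 3 and 5 it was 3.18, 4.11 and 2.58 times. Without replicate 3, the Ts65Dn range was 1.11 to 3.18 times, with a median of 1.36. Fitted within each genotype, the log2 difference of HIP over EC was -1.16 (SE 0.13) in wt and -0.98 (SE 0.24) in Ts65Dn. Without replicate 3, the mean of the 5 Ts65Dn differences in log2 CPM was -0.77 ± 0.70 (SD). In order of mean level, wt HIP (109.1 CPM) was followed by wt EC (257.4 CPM), Ts65Dn HIP (358.1 CPM) and Ts65Dn EC (707.9 CPM). The middle groups overlapped, with 152.7 to 433.9 CPM in the wt EC and 199.8 to 447.5 CPM in the Ts65Dn HIP, whereas the wt HIP did not overlap with the wt EC, nor the Ts65Dn HIP with the Ts65Dn EC.

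**Figure D3:**
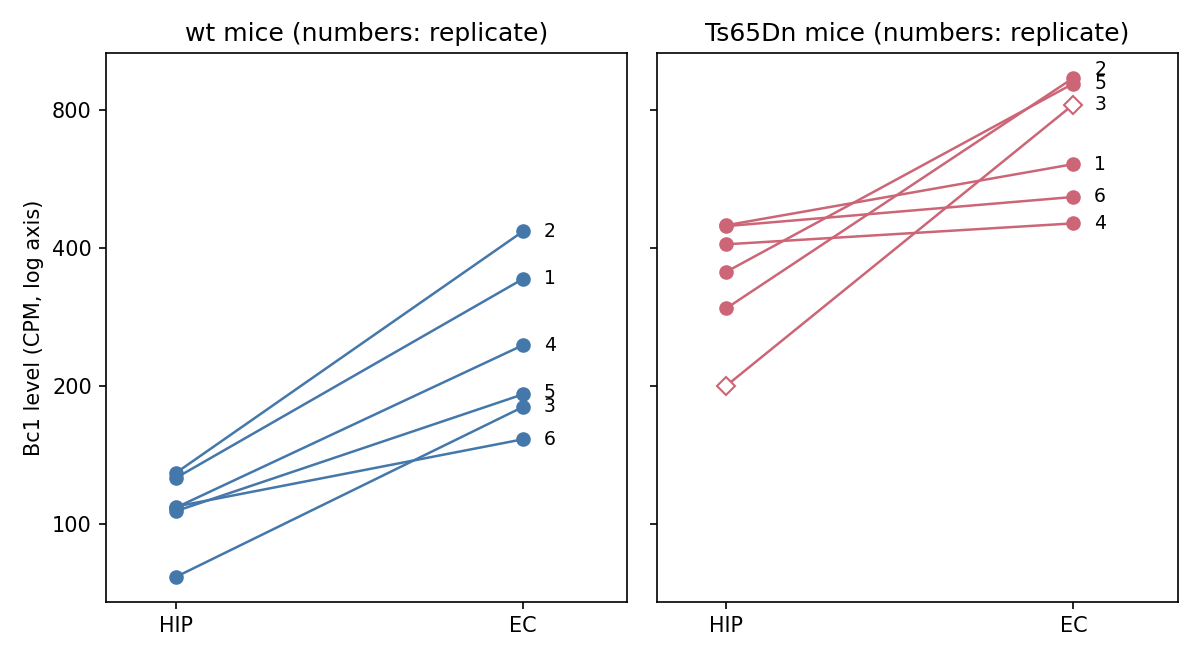
Bc1 level in CPM on a log axis in the HIP and the EC of each mouse, joined by a line, with wt mice on the left, Ts65Dn mice on the right and replicate numbers beside the EC points. Every line rises from HIP to EC, and Ts65Dn mice that were lowest in the HIP (replicates 2, 3 and 5) were highest in the EC.

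Whether a mouse with more Bc1 in the HIP also had more in the EC was tested within each genotype, over 6 mice each. In wt, Pearson's r was 0.69 (exact permutation test, p = 0.0986) and Spearman's rho was 0.66 (p = 0.175). In Ts65Dn, r was -0.65 (exact permutation test, p = 0.156) and rho was -0.60 (p = 0.242). After Benjamini-Hochberg adjustment over these 4 exact permutation tests, p was 0.233 to 0.242, so neither an agreement nor an inversion between regions was detectable with 6 mice. Without the 2 mice farthest from the median in the HIP (replicates 2 and 3 in each genotype), r was 0.81 in wt and -0.70 in Ts65Dn. Without Ts65Dn replicate 3 alone, r was -0.81 in Ts65Dn (exact permutation test, p = 0.133). Over all 12 mice, deviations of Bc1 from the genotype means had r = -0.06 between regions, against a median of 0.25 over the 18109 genes tested, which places Bc1 at the 22.1 percentile.

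Mice of 1 group differed more in Bc1 than in other genes of like level. The SD of log2 CPM was 0.27 in the wt HIP, 0.45 in the Ts65Dn HIP, 0.58 in the wt EC and 0.45 in the Ts65Dn EC. For 658 genes whose mean log2 CPM was within 0.5 of that of Bc1, the median SD was 0.08 to 0.11, and the SD of Bc1 was at the 98.2 percentile or higher among them. Without replicate 3, the SD was 0.26 in the Ts65Dn HIP and 0.48 in the Ts65Dn EC. Per length, as CPM per kb of exon, Bc1 was one of the most abundant transcripts of the libraries, at rank 26 of 18099 genes in the wt HIP (649.4 CPM per kb), 6 in the Ts65Dn HIP (2132), 13 in the wt EC (1532) and 4 in the Ts65Dn EC (4213). Per-length levels of a gene this short are rough, since a 50-base read has only 119 places to start.

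The RNA polymerase III machinery, which transcribes Bc1 and other short RNAs, was represented by 32 genes. Of these, among them subunits of the polymerase, TFIIIB, TFIIIC and SNAPc, 0 were called by edgeR in the HIP (against 1.04% of all genes; 6 had an unadjusted p under 0.05, and DESeq2 called 3), with a median log2 fold change of -0.05 against 0.00 over all genes tested. In the EC, 1 of 32 was called (3.12%, against 2.50% of all genes), with a median of -0.02. Shares this close to those of all genes are no result about the list. Without Ts65Dn replicate 3, 1 was called in each region. DESeq2 called 631 of 17355 genes (HIP) and 1105 of 17049 genes (EC), which is the background for its counts in this and later lists. The member called in the EC was Gtf3c1, the largest subunit of TFIIIC, the factor that reads the internal promoter of tRNA-like genes. It had 142.9 ± 5.4 CPM in the wt EC and 165.7 ± 6.8 CPM in the Ts65Dn EC (SD, n = 6), a log2 fold change of 0.21 (edgeR adjusted p = 0.0221). This call was kept in 8 of 12 fits that each left out 1 mouse (edgeR adjusted p up to 0.0606, without Ts65Dn replicate 1) and was lost with GC content and length corrected (edgeR adjusted p = 0.0859). In the HIP, Gtf3c1 had 138.6 ± 5.0 CPM in wt and 152.2 ± 6.2 CPM in Ts65Dn (edgeR adjusted p = 0.121). Gtf3a had larger log2 fold changes than Gtf3c1, 0.63 (HIP) and 0.52 (EC), and edgeR called it in neither region. Over the list, 9 (HIP) and 13 (EC) of the 32 log2 fold changes were above 0. Maf1, the repressor of RNA polymerase III, had 59.2 ± 3.9 and 59.3 ± 3.2 CPM in the wt and Ts65Dn HIP, and 67.6 ± 3.4 and 69.3 ± 6.4 CPM in the EC. Ssb, the La protein that binds the 3′ end of new polymerase III transcripts, had a log2 fold change of -0.07 (HIP) and 0.00 (EC). Between regions, 10 of the 32 were higher and 11 lower in the HIP (65.6%, against 68.4% of all genes).

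Of 7 other short RNAs, most of them made by polymerase III, Rn7sk and Rpph1 were tested and 5 were too low to test: Rmrp (RNase MRP RNA) and Terc (telomerase RNA) had 0 counts in every library, and Rny1, Rny3 (Y RNAs) and Vaultrc5 (a vault RNA) had means under 0.15 CPM in each group. Rn7sk, the 7SK RNA that restrains the elongation factor P-TEFb, had 11.3 ± 2.2 CPM in the wt HIP and 10.4 ± 2.2 CPM in the Ts65Dn HIP, and 8.88 ± 4.11 and 13.1 ± 10.4 CPM in the EC (SD, n = 6). Its log2 fold changes were -0.13 and 0.55 (edgeR adjusted p = 0.734 and 0.502). Rpph1, the RNA of RNase P, had 0.477 to 1.12 CPM as group means and log2 fold changes of -0.31 and 0.89 (edgeR adjusted p = 0.672 and 0.442). Among all 5727 genes annotated as snoRNA, scaRNA, snRNA, miscRNA, ribozyme or miRNA, 12 were high enough to test in each region, and 0 were called by edgeR or DESeq2 in either (2 and 0 had an unadjusted p under 0.05). By edgeR, 1.04% (HIP) and 2.50% (EC) of all genes were called, so 0 of 12 is no result about these genes. Without Ts65Dn replicate 3, edgeR also called 0 of them in each region, and neither Rn7sk nor Rpph1. Genes of these 6 biotypes are called small RNA genes in the next sentence. Together the small RNA genes held 0.0264% of counts in the wt HIP and 0.0256% in the Ts65Dn HIP, and 0.0313% and 0.0330% in the EC.

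Of the called genes with at most 300 bases of exon, most were lower in Ts65Dn. Of all genes with at most 300 bases of exon, 101 were tested in the HIP, of which 0 rose and 4 fell in Ts65Dn (3.96%, against 1.04% of all genes), with a median log2 fold change of -0.12. In the EC, 104 were tested, and 1 was higher and 5 were lower (5.77%, against 2.50% of all genes), with a median of -0.16. Without Ts65Dn replicate 3, 5 of 103 and 8 of 105 were called, 1 of them higher in each region. The gene mt-Te, a mitochondrial tRNA gene, had log2 fold changes of -1.28 (HIP) and -1.25 (EC) (edgeR adjusted p = 0.000486 and 0.0068). Uqcrh-ps2, a pseudogene of a respiratory chain subunit, fell by 1.10 and by 0.93 (edgeR adjusted p = 0.00984 and 0.00449), and Gm10222 fell by 0.65 and by 0.86 (edgeR adjusted p = 0.000451 and 0.017). Gm11966 was the member that rose, by 0.41 in the EC (edgeR adjusted p = 0.00862). The other 3 calls were lost when most single mice were left out: Gm12328 (HIP) was called in 3 of 12 such fits (edgeR adjusted p up to 0.074, without wt replicate 4), Gm5963 (EC) in 3 (up to 0.0904, without wt replicate 3) and Gm35595 (EC) in 1 (up to 0.102, without Ts65Dn replicate 1). DESeq2 called 9 short genes in each region, where it called 631 of 17355 genes (HIP) and 1105 of 17049 genes (EC) in all. Pseudogenes and nuclear copies of mitochondrial genes can share reads with their parent genes, so their values are uncertain. Mitochondrial genes took 4.28% ± 0.26 of counts in the wt HIP and 3.67% ± 0.37 in the Ts65Dn HIP, and 5.47% ± 0.86 and 4.24% ± 0.47 in the EC (SD, n = 6). Their part in the Bc1 difference was not tested. With GC content and length corrected, Bc1 had log2 fold changes of 1.93 (HIP), 1.69 (EC) and -0.96 (between regions).

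Proteins that bind Bc1 or act with it in translation initiation were represented by 23 genes. Of these, 0 were called by edgeR in the HIP (against 1.04% of all genes; 8 had an unadjusted p under 0.05, and DESeq2 called 2). In the EC, 0 were higher and 2 lower in Ts65Dn by edgeR (8.70%, against 2.50% of all genes), and DESeq2 called 4. Without Ts65Dn replicate 3, edgeR called 0 in the HIP and again 2 in the EC. Purb, a single-stranded nucleic acid-binding protein of dendritic RNA granules, had 934.2 ± 50.4 CPM in the wt EC and 744.5 ± 70.2 CPM in the Ts65Dn EC (SD, n = 6), and fell by 0.34 on the log2 scale (edgeR adjusted p = 0.0182, and 0.0542 without Ts65Dn replicate 1). Eif4e, the cap-binding protein, had 92.3 ± 5.8 CPM in the wt EC and 79.6 ± 4.0 CPM in the Ts65Dn EC, and fell by 0.22 (edgeR adjusted p = 0.0372). Its call was kept in only 4 of 12 fits that each left out 1 mouse (edgeR adjusted p up to 0.0971, without Ts65Dn replicate 1) and was lost with GC content and length corrected (edgeR adjusted p = 0.334). The most abundant of these genes, Cyfip2, whose product joins FMRP and the WAVE complex, had log2 fold changes of 0.01 and -0.08, and Eif4g2 of -0.01 and -0.08. With a block for the replicate number, neither Purb nor Eif4e was called in the EC (edgeR adjusted p = 0.0766 and 0.124). Syncrip had log2 fold changes of -0.24 (HIP) and -0.35 (EC), and edgeR called it in neither region. Over the list, the median was -0.03 (HIP) and -0.04 (EC), and 7 and 8 of the 23 log2 fold changes were above 0. With 2 calls that depend on the processing, this is no result about the list.

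The mRNAs that are themselves carried into dendrites and the genes of the group I mGluR pathway were called by edgeR in neither region, with or without Ts65Dn replicate 3. With 1.04% and 2.50% of all genes called, lists of this size would hold few calls in any case. Of 16 dendritic mRNAs, 0 were called by edgeR or DESeq2 in either region (4 and 2 had an unadjusted p under 0.05), with median log2 fold changes of 0.04 and 0.03. Camk2a, a kinase of the postsynaptic density, had 4043 ± 194.8 and 4116 ± 514.9 CPM in the wt and Ts65Dn HIP and 4065 ± 249.5 and 4088 ± 171.2 CPM in the EC. Ddn (dendrin) and Map2, a microtubule protein of dendrites, had log2 fold changes of -0.21 and -0.14 (HIP) and of 0.02 and -0.08 (EC) (edgeR adjusted p of 0.23 to 0.906). Of 12 genes of group I mGluR signalling, 0 were called by edgeR in the HIP (3 had an unadjusted p under 0.05, and DESeq2 called 2), and 0 were called for the EC (2 with an unadjusted p under 0.05, and 0 by DESeq2). Gnaq, the G protein subunit that couples these receptors to phospholipase C, had log2 fold changes of -0.08 and -0.14, and Eef2, the elongation factor at the end of one branch of the pathway, of 0.10 in both. Between regions, 9 of the 16 dendritic mRNAs were lower and 4 higher in the HIP (81.2%), and 7 of the 12 mGluR genes were lower and 4 higher (91.7%), where 68.4% of all genes were called.

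**Figure D4:**
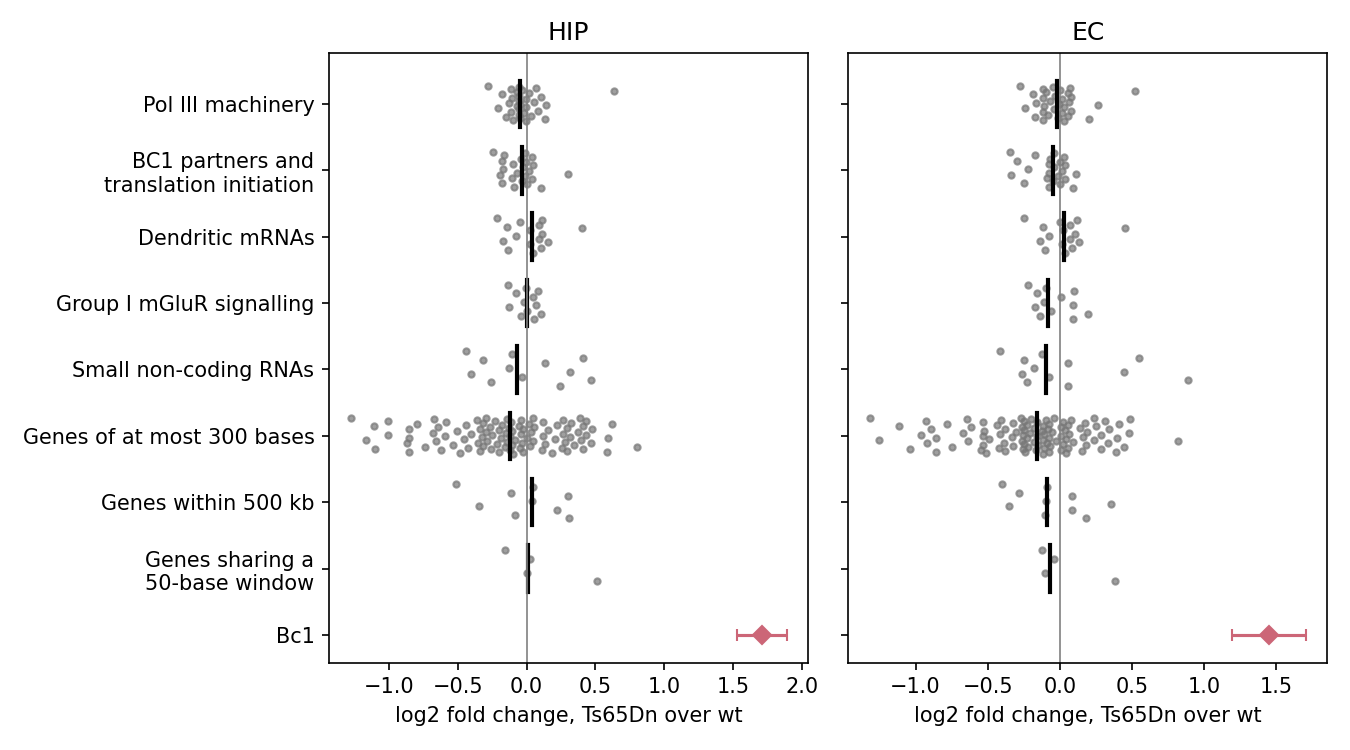
log2 fold change of Ts65Dn over wt in the HIP and the EC for Bc1 (diamond with its SE) and for the tested members of 8 gene lists (grey points, 1 per gene; black bar, median), without the list of 7 short RNAs, of which Rn7sk and Rpph1 were tested. Bc1 stood at 1.71 and 1.45, while the medians of the 8 lists shown lay between -0.16 and 0.04.

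Of 23 genes on chromosome 7 that start within 500 kb of Bc1, 9 (HIP) and 10 (EC) were high enough to test, and 0 were called by edgeR or DESeq2 in either region (0 had an unadjusted p under 0.05). This was also so for edgeR without Ts65Dn replicate 3, and 1.04% and 2.50% of all genes were called, and a count of 0 in lists of 9 and 10 is no result about the neighbours. The nearest, LTO1, starts 463 bases after the end of Bc1 on the same strand, and it had 15.7 ± 0.7 CPM in the wt HIP and 14.9 ± 1.7 CPM in the Ts65Dn HIP, and 13.2 ± 0.7 and 12.4 ± 0.8 CPM in the EC (SD, n = 6). Ccnd1, which encodes the cell cycle protein cyclin D1, had log2 fold changes of -0.11 (SE 0.07) and -0.09 (SE 0.18). On the other side, the antisense gene Gm39119, 4385 bases away, had counts close to 0, and Fgf15 and Fgf3, both growth factor genes, had group means under 0.6 CPM. Between regions, 5 of 10 tested neighbours were called higher and 2 lower in the HIP (70.0%, against 68.4% of all genes), which is no result about the neighbours. LTO1 was among the higher (log2 difference 0.26). The lower, in the direction of Bc1, were Fgf3 (-1.59) and Mrgprf (-0.57).

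The 5 genes whose transcripts hold a 50-base window of Bc1 were looked at after its sequence was known. In each region 4 of them were tested, and edgeR called 0 (1 and 0 had an unadjusted p under 0.05, and DESeq2 called 1 and 0). Of all genes, edgeR called 1.04% (HIP) and 2.50% (EC), so 0 of 4 is no result about these genes. Without Ts65Dn replicate 3, edgeR again called 0 in each region. Akap5, a postsynaptic scaffold protein, had 102.9 ± 5.3 and 92.6 ± 4.7 CPM in the wt and Ts65Dn HIP and 158.7 ± 13.7 and 146.9 ± 15.1 CPM in the EC. Elp6 and Tatdn1 had log2 fold changes between -0.10 and 0.02. Gm26549 had log2 fold changes of 0.51 (SE 0.37) and 0.38 (SE 0.45) that did not pass the test (edgeR adjusted p = 0.569 and 0.712), at group means of 0.369 to 0.724 CPM.

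The genes whose levels followed Bc1 most closely across mice were sought by the smaller of its Pearson correlations in the HIP and the EC, over 12 mice in each region and 14884 genes of mean CPM of at least 1. These values are descriptions, and all 12 mice of each region include both genotypes, so a gene that differs with genotype can score high for that reason alone. Among the highest were Mrpl38 (r = 0.90 in the HIP and 0.91 in the EC), Mfsd13a (0.89 and 0.94), Mgat4b (0.87 and 0.86) and Ddx49 (0.85 and 0.89). The lowest were Uqcrh-ps2 (-0.91 and -0.88), Hdgfl3 (-0.87 and -0.84), Rab39b (-0.89 and -0.84), Kbtbd7 (-0.89 and -0.82) and Zfp65 (-0.87 and -0.82). The log2 fold changes of these 9 genes with genotype were between -1.10 and 0.33.

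With the genotype means subtracted, the genes that followed Bc1 had a lower median exon length than all genes, and those that opposed it a higher one. The highest were Oaz1, the antizyme of ornithine decarboxylase (r = 0.80 in the HIP and 0.89 in the EC), Gm14539 (0.82 and 0.79), Pet100 (0.83 and 0.78), Tmem258 (0.77 and 0.92) and Ndufa6, a subunit of respiratory complex I (0.83 and 0.77). The lowest were the histone methyltransferase genes Nsd1 (-0.83 and -0.89) and Kmt2a (-0.86 and -0.82), the chromatin remodeller gene Chd6 (-0.84 and -0.81), Tpr (-0.86 and -0.81) and Akap9 (-0.80 and -0.85). The 34 genes with r of at least 0.7 in both regions had a median exon length of 1830 bases, the 37 genes with r of at most -0.7 had 16092 bases, and 14878 genes of known length had 4372 bases. These counts depended on single mice: without Ts65Dn replicate 3 they were 30 and 70, without wt replicate 4 67 and 55, without Ts65Dn replicate 2 66 and 40, and without wt replicate 2 27 and 22. When these genes were split by exon length into 10 groups of like size, the median r with Bc1 went from 0.14 (HIP) and 0.22 (EC) for the shortest group (median 1042 bases) to -0.31 and -0.30 for the longest (median 12522 bases). Over the 12 ways of leaving out 1 mouse, the medians were 0.11 to 0.17 (HIP) and 0.16 to 0.27 (EC) for the shortest group, and -0.33 to -0.28 and -0.34 to -0.23 for the longest. These r values rest on the same 12 libraries per region, which share preparation and differ in depth, and whether gene length bears on the level of Bc1 was not tested.

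**Figure D5:**
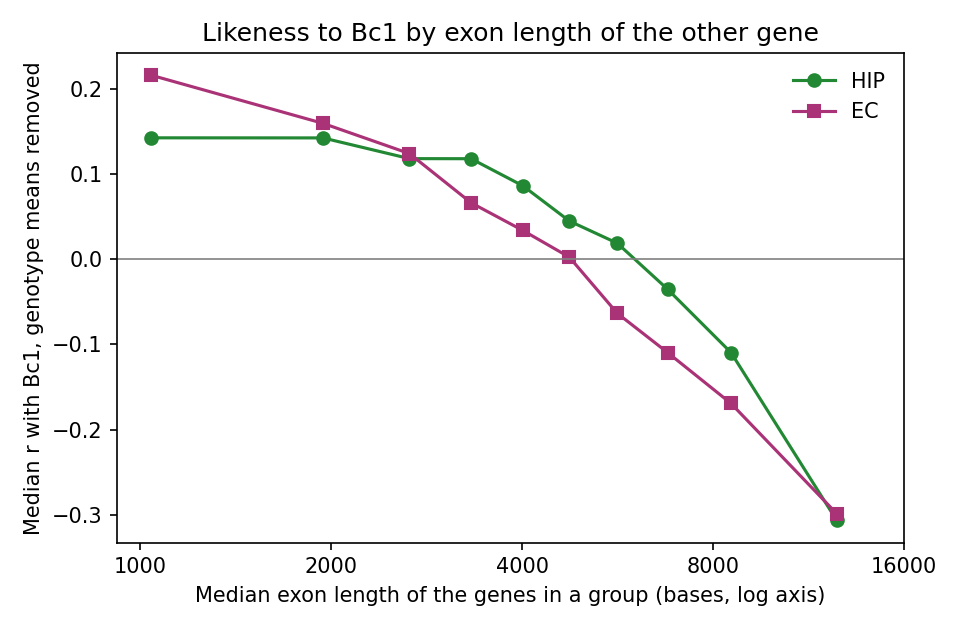
Median Pearson r with Bc1, after subtraction of genotype means, for 10 groups of genes ranked by exon length (horizontal log axis, median length of each group in bases), in the HIP and the EC over 12 mice each. The median falls from 0.14 and 0.22 in the shortest group to -0.31 and -0.30 in the longest.

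Neuron markers (Rbfox3, Snap25, Syt1, Slc17a7, Gad1 and Gad2; Snap25 the most abundant, none at 0) summed to 6533 ± 334.1 CPM in the wt HIP and 6730 ± 590.5 CPM in the Ts65Dn HIP, and to 8533 ± 436.1 and 8135 ± 186.1 CPM in the EC (SD, n = 6). None of the 6 was called by edgeR in either region (1 and 2 had an unadjusted p under 0.05, and DESeq2 called 0 and 1). Over the 45 markers of 11 cell types and regions, edgeR called 1 of 45 tested in the HIP and 2 of 43 tested in the EC, against 1.04% and 2.50% of all genes. An unadjusted p under 0.05 was found for 6 and 12, and DESeq2 called 3 and 4. P2ry12, a microglial receptor, fell by 0.27 (HIP) and by 0.45 (EC) on the log2 scale (edgeR adjusted p = 0.0422 and 0.0226), while the 4 microglia markers summed to 235.3 ± 12.5 and 228.9 ± 14.5 CPM in the HIP and 291.0 ± 36.02 and 265.1 ± 19.2 CPM in the EC. Drd2, the dopamine receptor of striatal neurons, rose by 1.56 in the EC (edgeR adjusted p = 0.0254), and the 4 striatum markers summed to 87.4 ± 7.7 CPM in the wt EC and 104.2 ± 19.5 CPM in the Ts65Dn EC. In 12 fits that each left out 1 mouse, P2ry12 was called in 4 (HIP) and 9 (EC), and Drd2 in 7 (EC). With GC content and length corrected, neither gene was called in these comparisons (edgeR adjusted p of 0.058 to 0.452). With a block for the replicate number, neither was called either (edgeR adjusted p of 0.0665 to 0.0734). Choroid plexus markers, led by Ttr, varied from 92.7 to 4887 CPM among wt HIP libraries and from 55.4 to 5202 CPM among Ts65Dn HIP libraries. The part of these cell types in the Bc1 difference was not tested.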

How the data were processed

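RNA-Seq counts of the HIP and EC of 6 Ts65Dn and 6 wt mice were analysed, with groups and replicate numbers taken from the sample labels. The authors aligned single-end reads of 50 bases with Hisat2 to GRCm38 (Ensembl release 99), and the deposited values are raw HTSeq-count counts, not normalized. The HTSeq-count options are not given in the sources used here. Each of the 24 columns entered the analysis. Further tables hold the authors' comparisons (mean signal, log2 fold changes, ratios, scores and p-values), and they were not used. Of 55385 genes, 55144 (99.6%) matched GENCODE vM21 by identifier.

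The quasi-likelihood test of edgeR was run within each region (edgeR 4.0.16, R 4.3.3; filterByExpr, TMM, Benjamini-Hochberg adjusted p under 0.05), and between regions with a term for each mouse, which the labels tie to both libraries. The SE of a log2 fold change is its size divided by the square root of F. Log2 CPM used a prior count of 2, and exact permutation tests used Python 3.11.15. In simulated data, 62.0% of genes changed 1.5-fold and 77.0% of genes changed 2-fold were recovered for the HIP (17355 genes), and 64.0% and 87.0% for the EC (17049 genes), so real changes can be missed. The labels do not tie the sequenced mice to litters, so the tests treated mice as independent. If some of them shared a litter, p-values can be too small.

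Bc1, the gene lists and the tests were chosen with earlier results of these data known; the list of genes that share 50-base windows was added after seeing its sequence. For each list, members called in either region (at most 6) and the 3 most abundant were to be named, for likeness the 5 highest and 5 lowest genes, and for neighbours the 4 nearest on each side; of these, those that carry a comparison are printed, and some items are not reported here. Alternatives were DESeq2 1.42.0, its size factors within edgeR, no TMM, an adjusted p under 0.1, no filter, a minimum of 10 counts in each sample, correction for GC content and exon length, a block for the replicate number, a prior count of 0.5, Spearman's rho, and leaving out each mouse. The Bc1 sequence is that of the GENCODE transcript, cut at the end that RefSeq gives on GRCm38.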

Additional observations from a re-analysis of the deposited data

Results flagged for a closer look

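Among 106 groups of 6 libraries, 13 held a library whose gap to its nearest neighbour exceeded 0.625 of the range of the group, where chance gives about 1 in 20. For Bc1 itself, the wt HIP library of replicate 3 was low, at 6.26 log2 CPM against 6.73 for the next library. Both libraries of the mouse labelled Ts65Dn replicate 3 had triplicated genes at the wt level, with median folds of 1.02 (Mmu16) and 0.975 (Mmu17) for the HIP library and 1.01 and 0.984 for the EC library, while the other Ts65Dn libraries began at 1.43, 1.37, 1.46 and 1.43. The wt HIP library of replicate 6 had a low median fold of Mmu17 genes, 0.902. Mitochondrial genes took 4.39% of counts in the Ts65Dn HIP library of replicate 5, against 3.74% in the next highest.

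Among the named genes, Ssb was high in the wt HIP library of replicate 4 (143.2 CPM). Rn7sk was high in the wt EC library of replicate 4 (16.98 CPM) and in the Ts65Dn EC library of replicate 2 (33.1 CPM). Mir6236, a short gene, was low in the wt HIP library of replicate 2 (113.4 CPM), and the EC library of the same mouse was high in Gm10222 (72.8 CPM) and low in Ccnd1 (26.4 CPM). The causes of these values were not tested.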

How the results depend on the processing

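In the regional comparison, whose p-values are descriptions, Bc1 kept its direction and its call in the 8 alternatives and the 12 fits that each left out 1 mouse. Its genotype differences were selected, so that their range below is a description and no sign of stability. The log2 fold change of Bc1 was 1.68 to 1.93 (HIP), 1.45 to 1.73 (EC) and -1.11 to -0.96 (between regions), and with 1 mouse left out 1.63 to 1.83, 1.34 to 1.66 and -1.17 to -0.98. The counts of genes called moved more. In the HIP, where 181 were called, there were 631 with DESeq2, 104 with GC and length corrected and 389 at an adjusted p under 0.1, and with 1 mouse left out 54 (without Ts65Dn replicate 6) to 318 (without Ts65Dn replicate 3). In the EC, where 426 were called, there were 1105 with DESeq2, 275 without a filter, 142 with GC and length corrected and 1025 at an adjusted p under 0.1, and with 1 mouse left out 90 (without Ts65Dn replicate 1) to 685 (without Ts65Dn replicate 6). GC and length correction raised the share of genes higher in Ts65Dn from 51.9% to 66.3% of calls (HIP) and from 46.0% to 58.5% (EC). Without TMM factors, it was 55.4% (HIP) and 72.9% (EC), and the share of regional calls higher in the HIP went from 51.9% to 63.3%.

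Replicate numbers are shared by wt and Ts65Dn mice. The deviations of same-numbered mice had r of -0.20 to 0.17, and whether such mice shared a batch was not tested. A replicate block gave 29 calls (HIP) and 36 calls (EC) (7 and 20 with GC and length also corrected), with log2 fold changes for Bc1 of 1.68 and 1.49 (1.90 and 1.73). With the block, the SE of Bc1 was 0.11 (HIP) and 0.20 (EC), against 0.18 and 0.26 without it. HIP and EC libraries of 1 mouse had r of 0.18 to 0.43. Without the block for mouse, the regional change of Bc1 was -1.11.

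The agreement of Bc1 between regions had r of 0.56 to 0.90 in wt and -0.81 to -0.57 in Ts65Dn with 1 mouse left out, and passed an unadjusted threshold of 0.05 in wt without replicate 6 (r = 0.84, exact permutation test, p = 0.0417). Of the 5 genes most like or least like Bc1, 1 to 3 were still among the 5 without Ts65Dn replicate 3 or with Spearman's rho, so these names are not stable. Causes of these changes were not tested.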
